A study of Mus musculus with 8 samples.

Results

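Gluconeogenesis makes glucose from lactate, amino acids and glycerol, and the newborn liver depends on it between feeds. Pyruvate carboxylase (Pcx) and the phosphoenolpyruvate carboxykinases (Pck1 in the cytosol, Pck2 in mitochondria) carry pyruvate past the pyruvate kinase step, fructose bisphosphatase (Fbp1) reverses the phosphofructokinase step, and glucose 6-phosphate is carried into the endoplasmic reticulum by Slc37a4 and cleaved there by G6pc to free glucose. Transcription of some of these genes, Pck1 and G6pc among them, is driven in fasting by 4 regulators. They are the coactivator PGC-1alpha (Ppargc1a), the insulin-restrained forkhead factor Foxo1, the CREB coactivator Crtc2 and the liver factor Creb3l3. These 10 genes, 6 enzymes or transporters and 4 regulators, are described here in livers with and without glycerol kinase, the enzyme through which glycerol enters this pathway. They were taken by gene symbol from the array's annotation, which pairs 25 of the 45101 probe sets with them. A probe set is a group of short probes that reads 1 stretch of a transcript. Of the 25, 4 are the manufacturer's control probe sets along the Pcx transcript and 21 are ordinary probe sets. Of the 21, 18 reached the signal minimum of 200 on at least 4 of the 8 arrays and were tested.

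The study compared the livers of 4 glycerol kinase knockout pups with livers from 4 age-matched wild-type littermates. Each pup was labelled as a male inbred C57BL/6J mouse and sampled on day of life 3, when the series design describes the knockouts as symptomatic, with low blood glucose and acidosis. Each liver was hybridised singly to a whole-genome Affymetrix mouse array. The labels do not describe the disrupted allele. Whole liver was used, so fewer cells of a type and less RNA per cell cannot be told apart.

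The targeted gene was not analysed here, and so could not be used to check which arrays are knockouts. The array labelled wild type 4 went against its label: Xist, a transcript made from the silenced X chromosome in females, had a signal of 10506 there and of 196 to 396 on the other 7 arrays. Where leaving this array out moves the difference of a gene or the median of a list described below by over 1.5 times, or changes its call or direction, the value without it is given too. For the transferrin receptor control, the ratio of 3' to 5' signal parted replicates 1 and 2 of both genotypes (6.50 to 6.72) from replicates 3 and 4 (4.21 to 4.83). These are called array sets below, and since each holds 2 arrays of each genotype, the knockout effect is also given within each. Hepatocyte markers were bright on every array, with a summed signal of 197677 to 244287 in wild type and of 214933 to 290214 in the knockout over 11 genes. Summed markers of kidney, the other tissue that makes glucose, lay between 866 and 1580 over 6 genes. Slc34a1, the defining phosphate transporter of proximal tubule, lay between 45.6 and 115. Slc22a6 and Umod, the latter not a proximal tubule marker, also stayed under the signal minimum. Kap lay between 246 and 583, above that minimum on all 8 arrays, and Lrp2 reached it on 6 and Slc5a2 on 5.

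The sequences just before the start sites of Pck1, Ppargc1a and G6pc are shown because these genes, all known targets of glucagon and fasting signals, had unlike differences between the genotypes, given below. They are RefSeq stretches of the GRCm38.p6 build, 250 bases each, written 5' to 3' on the gene's strand and ending at the base before the start. Pck1 lies at chr2:173152823-173153072 on the plus strand, Ppargc1a at chr5:51567726-51567975 on the minus strand and G6pc at chr11:101367466-101367715 on the plus strand. The annotated span of Ppargc1a runs from 51454249 to 52115853, so the start used lies inside the gene. Sequence before its far upstream end was not looked at. Capitals mark matches on either strand to the core of the cyclic AMP response element (TGACG), to the FOXO elements TGTTTAC and TGTTTTG, to the glucocorticoid receptor element TGTTCT and to the TATA box TATAAA.
Pck1: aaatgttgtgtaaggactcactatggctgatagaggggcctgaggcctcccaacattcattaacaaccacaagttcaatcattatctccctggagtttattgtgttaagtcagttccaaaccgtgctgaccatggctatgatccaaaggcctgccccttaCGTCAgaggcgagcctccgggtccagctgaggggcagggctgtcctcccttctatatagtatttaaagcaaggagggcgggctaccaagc
Ppargc1a: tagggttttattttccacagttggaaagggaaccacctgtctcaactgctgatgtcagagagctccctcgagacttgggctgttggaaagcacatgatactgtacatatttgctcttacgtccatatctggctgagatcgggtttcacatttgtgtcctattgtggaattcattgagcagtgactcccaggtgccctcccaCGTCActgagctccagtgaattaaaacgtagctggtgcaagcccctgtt
G6pc: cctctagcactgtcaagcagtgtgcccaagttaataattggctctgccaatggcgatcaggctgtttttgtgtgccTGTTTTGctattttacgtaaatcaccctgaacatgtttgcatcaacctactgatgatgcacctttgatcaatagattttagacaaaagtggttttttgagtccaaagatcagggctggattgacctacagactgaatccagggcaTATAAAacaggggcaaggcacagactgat
Pck1 and Ppargc1a each held 1 match to the core TGACG, read on the opposite strand as CGTCA. It began 90 bases before the start in Pck1 and 49 before it in Ppargc1a. G6pc held no such core in this window, and held 1 TGTTTTG and 1 TATAAA. Over windows of 300 bases (250 before and 50 after the start), 9 of the 10 genes had 13 RefSeq start sites. Of the 13 windows 5 held the core, against 20.8% of all 32851 windows. Besides Pck1 and Ppargc1a, these were windows of Slc37a4 and Creb3l3. Their log2 fold changes were 0.25 and 0.08 (limma adjusted p = 0.760 and 0.845), so the core was not limited to the 2 genes with the largest differences. The windows of Slc37a4 start sites 1 and 2 overlap and share a match, so the 5 are not all separate. The full element TGACGTCA, which contains that core, was in 0 of the 13 and in 1.79% of all. TGTTTAC was in 0 (3.65% of all), TGTTTTG in 3 (6.28%), TGTTCT in 1 (19.0%) and TATAAA in 2 (13.6%). A match is only a run of letters and was not tested as a binding site.

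The largest differences among the 10 genes were those of Ppargc1a and Pck1, both with higher means in the knockout, and the other 8 lay between -0.05 and 0.32 on the log2 scale. None of the 18 tested probe sets passed the threshold, a Benjamini-Hochberg adjusted p under 0.05 over all 20395 probe sets tested with limma. The test called 0.299% of all probe sets, 0.147% higher and 0.152% lower in the knockout. At an unadjusted p under 0.05 there were 7 member probe sets, the 5 of Ppargc1a and 2 of Pck1, all higher in the knockout. In that direction 7.12% of all probe sets had such a p. The 7 are repeated readings of 2 genes and do not count as 7 separate members. Some of those of Ppargc1a reached the signal minimum on only 2 wild-type arrays and so passed the filter through the knockout, where they are high. The lowest adjusted p of a member was 0.0992, for a Ppargc1a probe set, and the highest 0.934, for G6pc. Differences below are log2(signal + 16) of the knockout less that of wild type, with limma's standard error (SE).

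**Figure D1:**
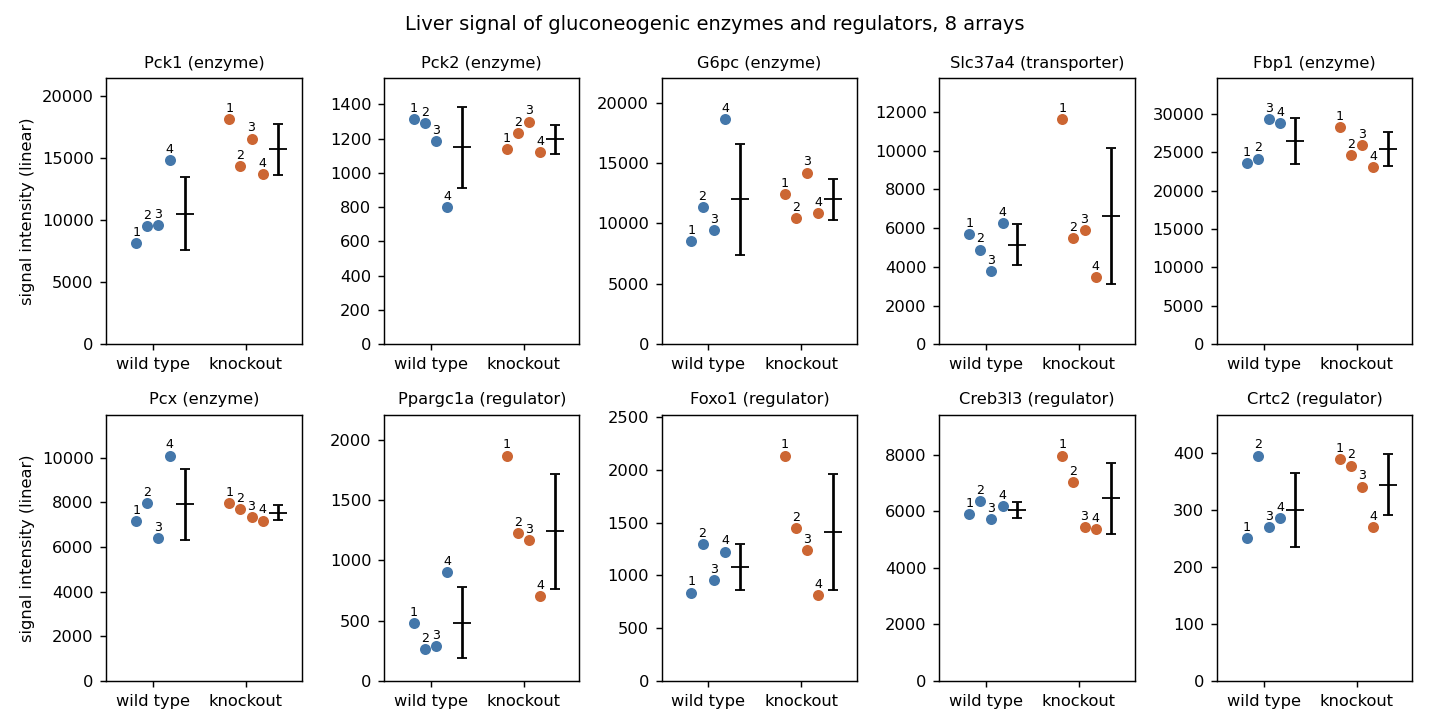
Signal intensity (linear axis from 0) of each gene's brightest tested probe set on the 4 wild-type and 4 knockout arrays. Numbers beside the points are replicate numbers, and the bar is the mean with SD (n = 4). For Pck1 and Ppargc1a wild type 1 to 3 lie below every knockout array, and wild type 4 lies among the knockouts.

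Pck1, whose product makes phosphoenolpyruvate from oxaloacetate in the cytosol and is the step most often taken as rate-setting, had wild-type signals of 8159, 9479, 9595 and 14795 on replicates 1 to 4. Its knockout signals were 18130, 14345, 16542 and 13694. The groups overlapped only through wild type 4, which exceeded knockout 2 and knockout 4. The means were 10507 ± 2932 and 15678 ± 2039 (SD, n = 4 each), a log2 fold change of 0.61 ± 0.18 with a 95% interval of 0.22 to 0.99 (limma adjusted p = 0.162). The second tested probe set of Pck1 read 5986 ± 2666 against 9746 ± 1778 (SD, n = 4), a difference of 0.78 ± 0.25 (limma adjusted p = 0.201). On that probe set, too, wild type 4 (9877) was the only wild-type array to reach the knockouts, which began at 8470. The remaining Pck1 probe set stayed under the signal minimum on all arrays, between 27.1 and 87.4, and was not tested.

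Without the array labelled wild type 4, Pck1 stood at 0.78 (limma adjusted p = 0.0841), and no member passed, where 0.0196% of all probe sets were called higher. With that array left out and the array set as a block, Pck1 rose by 0.78 ± 0.14 (limma adjusted p = 0.0449) and its second probe set by 1.02 ± 0.16 (adjusted p = 0.0380). In that fit 0.505% of all probe sets were called higher. With the block alone, all 8 arrays kept, the adjusted p of Pck1 was 0.118 and 0 members passed, as against 0.505% of all probe sets called higher. Within replicates 1 and 2 its difference was 0.87 and within replicates 3 and 4 it was 0.34, and a test of that difference between the sets gave an adjusted p of 0.561.

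The mitochondrial enzyme Pck2, which makes phosphoenolpyruvate inside the organelle, read 1315, 1293, 1188 and 801 on the wild-type arrays and 1138, 1230, 1299 and 1120 on the knockout arrays. Here wild type 4 was the lowest of the 8 arrays, where for Pck1 it was among the higher ones. The difference was 0.08 ± 0.17, with an interval of -0.30 to 0.46 (limma adjusted p = 0.870), and it stood at -0.08 without wild type 4. The second Pck2 probe set lay near or under the minimum (16.3 to 213) and was not tested.

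G6pc, which releases free glucose at the last step, had the widest wild-type range of the enzymes relative to its mean: 8547, 11320, 9461 and 18638. The knockout arrays read 12429, 10447, 14202 and 10835 and lay inside that range. The group means were 11991 ± 4579 and 11978 ± 1713 (SD, n = 4), a difference of 0.06 ± 0.22 with an interval of -0.43 to 0.54 (limma adjusted p = 0.934). Without wild type 4 it was 0.29 (limma adjusted p = 0.444), and under quantile normalization of the arrays it was -0.06. So the direction of G6pc was not fixed by these arrays.

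Slc37a4, which carries glucose 6-phosphate to G6pc, read 5673, 4896, 3769 and 6247 on the wild-type arrays and 11645, 5475, 5889 and 3478 on the knockout arrays. Knockout 1 alone stood above the wild-type arrays, and knockout 4 was the lowest of all. The difference of 0.25 ± 0.31 (interval -0.44 to 0.93; limma adjusted p = 0.760) became -0.07 without knockout 1. Within replicates 1 and 2 it was 0.60 and within replicates 3 and 4 it was -0.10.

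Fbp1, which makes fructose 6-phosphate, was steady, with wild-type signals of 23637 to 29354 and knockout signals of 23047 to 28322. Its difference of -0.05 ± 0.10 had the narrowest interval of the 10 genes, -0.28 to 0.18 (limma adjusted p = 0.856), and it was -0.01 without wild type 4. It was the 1 member whose knockout effect differed between the array sets at an unadjusted p under 0.05 (0.0457): 0.14 in replicates 1 and 2 and -0.25 in replicates 3 and 4. After adjustment that difference did not pass (limma adjusted p = 0.501). Over all probe sets 9.92% had an unadjusted p under 0.05 in this test, and 0.00981% passed after adjustment.

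Pcx, which turns pyruvate into oxaloacetate, read 7178, 7955, 6415 and 10096 on the wild-type arrays and 7966, 7692, 7349 and 7186 on the knockout arrays. The difference was -0.05 ± 0.14, interval -0.36 to 0.26 (limma adjusted p = 0.910), and it was 0.08 without wild type 4. Pcx is also read by the 4 control probe sets spaced along its transcript, which showed a spread that the ordinary probe set did not. At the 3' end the arrays lay between 3814 and 5295. At the 5' end wild type 1 to 4 read 1127, 1603, 1634 and 2494, and knockout 1 to 4 read 626, 854, 2245 and 2035. Knockout 1 and 2 were the lowest of the 8 arrays at the 5' end and at both middle positions, and at the 3' end they were inside the range of the others. Their 3'/5' ratios were 7.03 and 4.93, beside 2.06 to 3.46 on the other 6 arrays. A high ratio is a usual sign of shorter RNA or less complete labelling. The ratios of other control transcripts did not set both arrays apart in this way. For actin knockout 1 read 1.74 and knockout 2 read 1.27, beside 1.21 to 1.32 on the other 6 arrays. For Gapdh they read 0.896 and 0.886, beside 0.765 to 0.886. For the transferrin receptor they read 6.55 and 6.72, beside 6.50 and 6.53 on wild type 1 and 2. None of these control probe sets was tested.

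**Figure D2:**
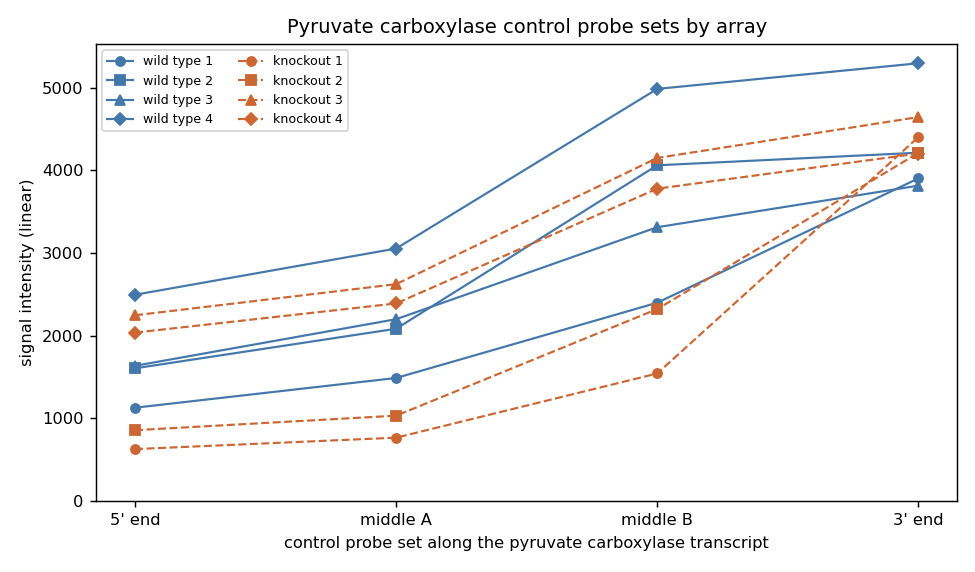
Signal intensity (linear axis from 0) of the 4 pyruvate carboxylase control probe sets, ordered from the 5' end to the 3' end of the transcript, with 1 line for each array. The lines of knockout 1 and knockout 2 start at 626 and 854 and meet those of the other arrays at the 3' end.

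Ppargc1a, the fasting-induced coactivator that binds HNF4A and FOXO1 at gluconeogenic promoters, had the largest difference of the 10 genes. Its brightest probe set read 478, 263, 291 and 901 on the wild-type arrays and 1868, 1222, 1168 and 702 on the knockout arrays. Knockout 4 was below wild type 4 and the other 3 knockouts were above every wild-type array. The means were 483 ± 294 and 1240 ± 479 (SD, n = 4), 2.57 times as high in the knockout, with a log2 fold change of 1.42 ± 0.38 and an interval of 0.57 to 2.26 (limma adjusted p = 0.134).

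All 5 probe sets of Ppargc1a gave the same direction, between 1.19 and 1.47. They read the same RNA samples and are not replicates of the genotype. On 2 of the 5, wild type 1 (523 and 491) exceeded wild type 4 (395.5 and 317) and knockout 4 (329 and 305). On those 2 the groups overlapped without wild type 4 too. The dimmest one had wild-type signals of 259, 153, 108.5 and 338 and knockout signals of 668, 574, 561 and 362. It was the 1 member probe set of 18 whose groups did not overlap, where 4.47% of all probe sets tested had groups apart with the knockout higher. Its difference was 1.36 ± 0.32 (limma adjusted p = 0.10). This probe set and another of Ppargc1a reached the signal minimum on only 2 wild-type arrays and so passed the filter through the knockout, while the 2 brightest reached it on all 8.

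**Figure D3:**
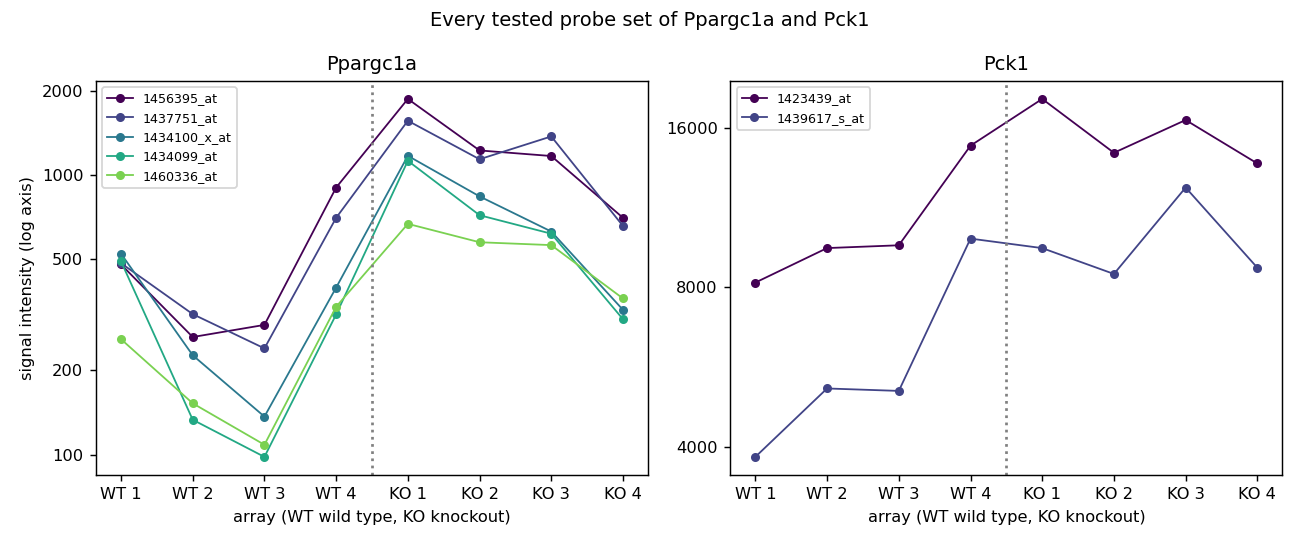
Signal intensity (log axis) on each array for the 5 tested probe sets of Ppargc1a and the 2 of Pck1, with 1 line for each probe set and a dotted line between the genotypes. The probe sets of each gene follow one another over most arrays, with wild type 4 above wild type 2 and 3 in both genes. On 2 of the 5 Ppargc1a probe sets wild type 1 lies above wild type 4 and knockout 4.

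Without the array labelled wild type 4, Ppargc1a stood at 1.77 (limma adjusted p = 0.0904). With that array left out and the array set as a block it rose by 1.86 ± 0.27 (limma adjusted p = 0.0260), and 3 of its 5 probe sets passed, where 0.505% of all probe sets were called higher. The dimmest of the 5, which passed the filter through the knockout, is 1 of those 3. With the block and all 8 arrays the adjusted p was 0.109. The second brightest probe set passed without knockout 4 (1.70; limma adjusted p = 0.0368), when 1.03% of all probe sets were called higher. Within replicates 1 and 2 the brightest probe set differed by 2.04 and within replicates 3 and 4 by 0.80. A test of that difference between the sets gave an adjusted p of 0.558.

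Foxo1, which insulin signalling keeps out of the nucleus, had wild-type signals of 837, 1300, 957 and 1227 and knockout signals of 2136, 1452, 1237 and 817. Knockout 1 was the highest and knockout 4 the lowest of the 8 arrays. The difference was 0.32 ± 0.27 (interval -0.27 to 0.91; limma adjusted p = 0.627), and the other 2 tested probe sets gave 0.35 and 0.27. Without knockout 1 the difference was 0.09, without wild type 1 it was 0.21, without knockout 4 it was 0.55, and with array weights it was 0.08. Within replicates 1 and 2 it was 0.75 and within replicates 3 and 4 it was -0.11. The remaining probe set stayed between 5.80 and 43.5 and was not tested.

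Creb3l3, an endoplasmic reticulum-bound factor made mainly in liver and gut, was the steadiest gene in wild type, where it read 5889, 6351, 5718 and 6178. The knockout arrays read 7964, 7028, 5445 and 5375, so the first pair lay above all wild-type arrays and the second pair below them. The mean difference was therefore small, 0.08 ± 0.14 (interval -0.24 to 0.39; limma adjusted p = 0.845). It was 0.29 within replicates 1 and 2 and -0.14 within replicates 3 and 4, a contrast with an adjusted p of 0.513.

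Crtc2, the coactivator that glucagon sends to the nucleus to join CREB, was dim. Its brighter probe set read 250, 395, 270 and 285 on the wild-type arrays and 389, 377, 340 and 270 on the knockout arrays, groups that overlapped over most of their range. The difference was 0.20 ± 0.19 (interval -0.22 to 0.62; limma adjusted p = 0.685), and the other probe set gave 0.24. Affymetrix marks the brighter one as open to binding other transcripts too. The same mark is on a Ppargc1a probe set and on those used below for Mdh1, Tpi1, Pgk1 and Apoa4. The dimmer Crtc2 probe set reached the signal minimum on only 2 wild-type arrays. Crtc2 protein is controlled by phosphorylation and location, which these arrays do not read.

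**Figure D4:**
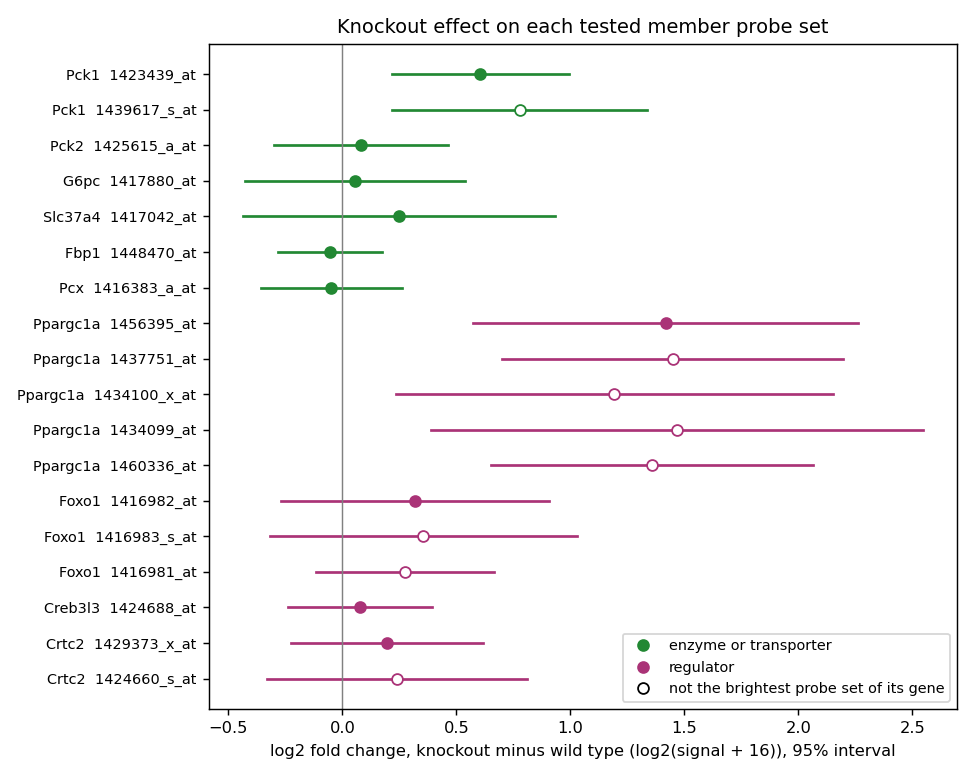
Log2 fold change (knockout minus wild type) with its 95% interval for the 18 tested member probe sets, green for enzymes and the transporter and purple for regulators. Filled points are the brightest probe set of each gene. The 5 intervals of Ppargc1a and the 2 of Pck1 lie above 0, and the other 11 include 0.

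Set against each other, the regulators had a median log2 fold change of 0.26 with 4 of 4 above 0, and the enzymes with the transporter 0.07 with 4 of 6 above 0. Over all 10878 genes tested the median was -0.02 and 46.5% were above 0. The medians differed by 0.19, which has no test because the genes were chosen together. Without wild type 4 the enzymes' median was 0.18, the regulators' 0.28 and the difference 0.10, and without knockout 4 the difference was 0.32. On single arrays the regulators' median less the enzymes' was 0.01, 0.21, 0.05 and -0.22 for wild type 1 to 4 and 0.59, 0.34, -0.01 and -0.05 for knockout 1 to 4, so the groups overlapped. The regulators' median on knockout 1 to 4, relative to the wild-type mean, was 0.70, 0.39, 0.20 and -0.14, and on the wild-type arrays it ran from -0.14 to 0.18. The enzymes' median was 0.11, 0.05, 0.21 and -0.10 on the knockouts and ran from -0.18 to 0.34 in wild type. Only knockout 1, 2 and 3 of the regulators lay above all wild-type arrays, and no knockout array of the enzymes did.

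The order of the arrays was shared by most members. Knockout 1 held the highest knockout signal for 8 of the 10 genes, with knockout 3 the highest for Pck2 and G6pc. Knockout 4 held the lowest knockout signal for 9 of 10, G6pc being the exception. Among the wild-type arrays wild type 4 was the highest for 5 of 10, Pck1, G6pc, Slc37a4, Pcx and Ppargc1a. Within replicates 1 and 2 the median was 0.52 for the regulators and 0.18 for the enzymes, and within replicates 3 and 4 it was 0.01 and -0.10. Tested within one set alone, 0 members passed in either, where 0.147% of all probe sets were called in replicates 1 and 2 and 0.00981% in replicates 3 and 4. In the same sets the median over hepatocyte markers was 0.24 and -0.15. Erythroid markers, of the blood-forming cells in newborn liver, had medians of -0.31 and 0.18. Macrophage markers had medians of 0.39 and -0.11, endothelial markers 0.15 and -0.22, and stellate cell markers -0.54 and 0.03. Over all arrays the hepatocyte median was 0.07, with 10 of 11 markers above 0. For the others 1 of 7 erythroid, 5 of 9 macrophage, 3 of 7 endothelial and 2 of 6 stellate cell markers lay above 0. No marker of these 5 cell types passed the threshold. The Pcx 3'/5' ratio was highest on knockout 1 and 2. The part of these measures in the members' differences was not tested.

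The genes whose pattern over the 8 arrays lay closest to Pck1, among 10877 others, were Clpx, a mitochondrial chaperone, the uncharacterised 2300009A05Rik, and the interleukin 1 receptor Il1r1. Likeness was the Euclidean distance between log2 values centred on each gene's mean, and these 3 lay at 0.31, 0.32 and 0.34 from Pck1, whose own distance from a flat pattern was 1.12. Clpx read 2747, 2774, 2734 and 4539 on the wild-type arrays and 6094, 3823, 4826 and 4235 on the knockout arrays, so it too was high on wild type 4. Closest to Ppargc1a were Ppp1r3g, which directs a phosphatase to glycogen, the peroxisomal oxidation enzyme Ehhadh, and the fasting-responsive factor Klf15, at 0.71, 0.85 and 0.86 against 2.62 for a flat pattern. Ppp1r3g read 752, 248, 341 and 804 on the wild-type arrays and 1628, 1218, 1181 and 748 on the knockout arrays. Of the other 9 members Pck1 was nearest to Ppargc1a, at rank 150, and Pck2 farthest, at rank 6490. From Pck1 the nearest member was G6pc, at rank 904, and the farthest was Ppargc1a, at rank 8555. The measure weighs the size of the swings as well as their order, so a gene with smaller or larger swings ranks lower.

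Other genes of the pathway were counted in lists by role, each gene through its brightest tested probe set. In the list on entry of carbon, 13 of 14 genes were measured, 0 rose and 1 fell, and 9 lay above 0 at a median of 0.34. Over all 10878 genes tested 13 rose and 17 fell. The list's median was 0.38 in replicates 1 and 2 and 0.03 in replicates 3 and 4, and it was 0.18 without knockout 1. The gene that fell was Gpd2, the mitochondrial enzyme that oxidises glycerol 3-phosphate, the product of glycerol kinase, from 1806 ± 740 to 497 ± 127 (SD, n = 4; -1.77 ± 0.31; limma adjusted p = 0.0488). Mdh1, which returns oxaloacetate to the cytosol for Pck1, had wild-type signals of 7281 to 8595 and knockout signals of 9368 to 12113, a difference of 0.45 ± 0.11 (limma adjusted p = 0.113). Got1, the cytosolic aspartate aminotransferase, stood at 1.07 ± 0.36 and the lactate and pyruvate carrier Slc16a1 at -0.57 ± 0.22, with adjusted p of 0.215 and 0.280.

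Of the reversible steps shared with glycolysis, 3 of 7 genes were measured, and 1 rose. Pgam1, phosphoglycerate mutase, read 3469, 2923, 3483 and 4589 on the wild-type arrays and 8809, 6015, 8776 and 7109 on the knockout arrays. Its groups did not overlap, and it rose by 1.08 ± 0.17 (limma adjusted p = 0.0441), with 1.19 in replicates 1 and 2 and 0.98 in replicates 3 and 4. Near-identical gene copies exist for Pgam1 in the genome, so its probe set may read more than 1 locus. Leaving out single arrays kept the direction of both called genes, but Pgam1 stayed past the threshold in 1 of 8 such fits (adjusted p from 0.0322 to 0.169) and Gpd2 in 2 of 8 (0.0336 to 0.173). Without wild type 4 Pgam1 stood at 1.20 (adjusted p = 0.0519) and Gpd2 at -1.57 (adjusted p = 0.103). Tpi1, triose phosphate isomerase, differed by 0.51 ± 0.12 and Pgk1 by 0.11 ± 0.12, with adjusted p of 0.102 and 0.720.

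**Figure D5:**
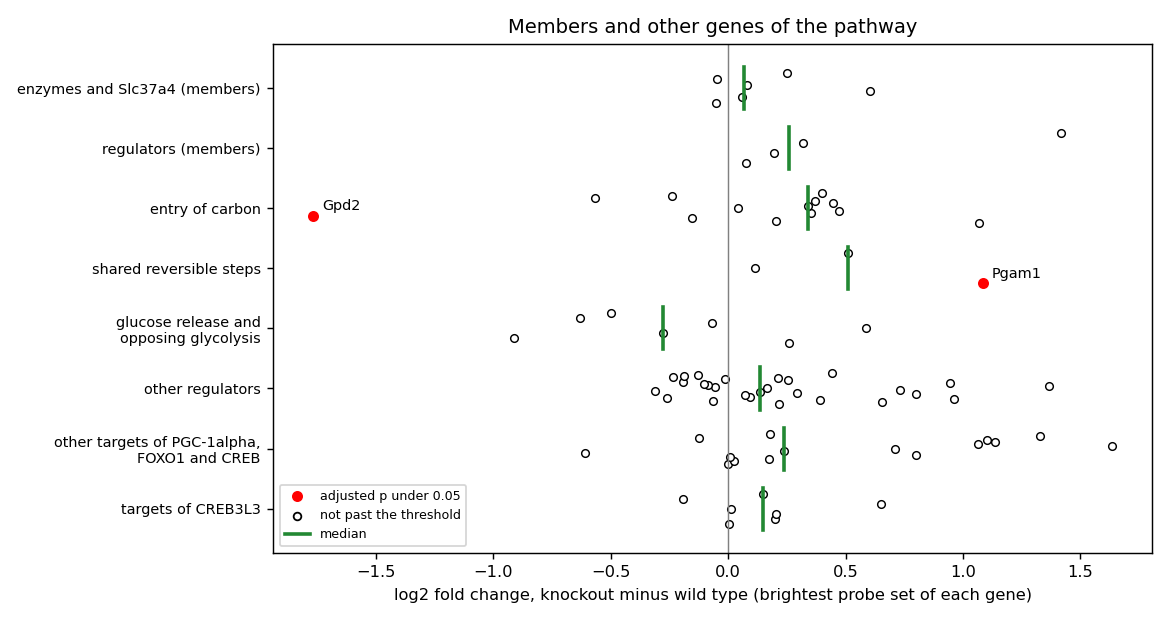
Log2 fold change (knockout minus wild type) of each measured gene in the member groups and in the other lists of the pathway, with 1 point for each gene and a green bar at the list's median. Red points passed the adjusted p threshold, which were Gpd2 and Pgam1.

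Glucose release and the opposing glycolytic enzymes lay mostly below 0: 7 of 9 were measured, 0 passed in either direction, and 2 of 7 lay above 0 at a median of -0.28, which was -0.27 in replicates 1 and 2 and -0.03 in replicates 3 and 4. Slc2a2, the liver's glucose transporter, stood at -0.50 ± 0.17 (limma adjusted p = 0.215) and the liver pyruvate kinase Pklr, which undoes the work of Pck1, at -0.63 ± 0.31 (adjusted p = 0.392). Gckr, the glucokinase regulator, had groups that did not overlap, at -0.28 ± 0.13 (adjusted p = 0.351). So did Gpd2 above and Gadd45a and Elovl2 below, each lower in the knockout. The share of all probe sets apart in that direction is not given here. Pfkfb3, which makes an activator of phosphofructokinase, stood at 0.59 ± 0.28 (adjusted p = 0.378).

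Among 27 measured of 28 other regulators, 0 rose and 0 fell, and 16 lay above 0 at a median of 0.14. That median was 0.28 in replicates 1 and 2, 0.05 in replicates 3 and 4 and 0.07 without wild type 1. Klf15, which activates amino acid breakdown in fasting, had the smallest p of them, with wild-type signals of 548 to 1242 and knockout signals of 1557 to 3599 (1.37 ± 0.30; limma adjusted p = 0.0839). Crem, a CREB family gene that cyclic AMP induces, stood at 0.96 ± 0.24, the nuclear receptor Esrra, a partner of PGC-1alpha, at 0.80 ± 0.27, and Hnf4a at 0.73 ± 0.27, with adjusted p of 0.114, 0.209 and 0.251. Hnf4a is also one of the hepatocyte markers above.

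Other targets of PGC-1alpha, FOXO1 and CREB were measured for 15 of 16 genes, of which 0 rose and 0 fell and 12 lay above 0 at a median of 0.24, which was 0.62 with array weights. Tat, tyrosine aminotransferase, read 5951 ± 789 in wild type and 15901 ± 6478 in the knockout (SD, n = 4), groups that did not overlap (1.33 ± 0.26; limma adjusted p = 0.0674). Irs2, an insulin receptor substrate that Foxo1 induces, stood at 0.71 ± 0.17, the clock gene Per1 at 1.14 ± 0.33 and the stress gene Gadd45a at -0.61 ± 0.14, with adjusted p of 0.107, 0.165 and 0.0995. Esrra is on both of these lists. Of the named list genes, Pgam1, Mdh1, Tpi1, Klf15, Crem, Esrra and Irs2 also had groups apart with the knockout higher. Of all probe sets tested 4.47% had groups apart in that direction. Targets of CREB3L3 were measured for 7 of 9 genes, of which 0 passed and 6 lay above 0 at a median of 0.15, which was 0.55 in replicates 1 and 2 and -0.14 in replicates 3 and 4. Leaving out single arrays moved it between -0.02 (without knockout 1) and 0.48 (without knockout 4), and without wild type 4 it was 0.26. Crp stood at 0.65 ± 0.17 (adjusted p = 0.132), and Apoa4 and Apoa5, lipoprotein genes, at 0.20 ± 0.26 and 0.20 ± 0.29 (adjusted p = 0.774 and 0.793). The knockout effects on Apoa4 were 0.74 in replicates 1 and 2 and -0.34 in replicates 3 and 4. Elovl2, a fatty acid elongase, stood at -0.19 ± 0.09 (adjusted p = 0.370).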

How the data were processed

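The authors deposited linear signal intensity, computed with GCOS 1.2 at its defaults and scaled per array to a target of 500, per the labels. Gene names came from the annotation of the platform, updated by Entrez identifier to RefSeq symbols of GRCm38.p6. This gave 34945 probe sets 1 gene, 932 several and 9160 none, and 64 control probe sets were left out of the tests. Those reaching 200 on 4 or more of the 8 arrays, 20395 in number, were compared as log2(signal + 16) with limma 3.58.1 in R 4.3.3 (lmFit, eBayes with an intensity trend, two-sided, Benjamini-Hochberg). The fit was tested on simulated data with independent noise, no array sets and added differences larger than any member's in the main fit. That test does not show how well differences of the members' size are found. A gene stands by its brightest tested probe set. Precision is limited by how few arrays there are, with a median SE of 0.19. Labels call the livers separate animals.

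The members, lists and tests were chosen with earlier results of these data known. All member probe sets are given. In each other list the text names genes past the threshold and then those of smallest p up to 4, and for Pck1 and Ppargc1a the 3 nearest genes. No batch is labelled, so array sets were taken from a control transcript. Alternatives were other pseudocounts, signal minimums, scalings, limma settings, blocks and left-out arrays. Figures used Python 3.11.15 with matplotlib 3.10.9.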

Additional observations from a re-analysis of the deposited data

Results flagged for a closer look

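The Xist signal of the array labelled wild type 4 stood apart from its group, at 10506.3 against 196 to 396 on the other wild-type arrays. Its gap to the nearest of them, over the range of the group, was 0.981, above Dixon's 95% critical value for 4 arrays. The Y-linked Eif2s3y read 1.30 there and 909 to 1164 on the other wild-type arrays. Of 23 groups of 4 arrays looked at, which included both genotypes for each of the 10 genes, this was the 1 that stood apart in this way. Chance does so in about 1 in 20 groups.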

How the results depend on the processing

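Pck1 (0.34 to 0.87) and Ppargc1a (0.80 to 2.04) kept their direction in all 23 settings, and Crtc2 in all 22 that measured it. The number of genes past the threshold stayed 0 of 10 in every setting except with the array set as a block and wild type 4 left out, which gave 2. The difference of regulators and enzymes was above 0 in 22 of 23 settings, from 0.10 to 0.32 with single arrays left out, and -0.02 with array weights. All probe sets called numbered 61, and 22 at a signal minimum of 100, 111 at 400, 21 with none, 184 with the array set as a block, 154 with wild type 4 left out as well, 30 in replicates 1 and 2, 2 in replicates 3 and 4, 749 with array weights, 18 without an intensity trend and 304 at an adjusted p under 0.1. Leaving out single arrays gave 2 to 334.

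The other members changed sign in some settings, none past the threshold. Quantile normalization gave -0.062 for G6pc and -0.0017 for Creb3l3, and scaling to a common median, which moved the median of all probe sets from -0.03 to 0.06, gave 0.037 for Fbp1 and 0.041 for Pcx. Replicates 1 and 2 gave -0.14 for Pck2, 0.14 for Fbp1 and 0.051 for Pcx. Replicates 3 and 4 gave -0.10 for G6pc, -0.10 for Slc37a4, -0.11 for Foxo1 and -0.14 for Creb3l3. Array weights gave -0.070 for Creb3l3. The block without wild type 4 gave -0.074 for Pck2 and 0.10 for Pcx. Single arrays left out gave -0.083 to 0.29 for G6pc, -0.080 to 0.15 for Pck2, -0.14 to 0.076 for Pcx, -0.068 to 0.51 for Slc37a4, 0.09 to 0.55 for Foxo1 and -0.030 to 0.16 for Creb3l3. The cause was not tested. Pgam1 and Gpd2 missed the threshold at a signal minimum of 100 (limma adjusted p = 0.0561 and 0.0632), with no minimum (0.0806 and 0.0868), without an intensity trend (0.0724 and 0.0775) and within single array sets. Gpd2 also missed it with a pseudocount of 1 (0.0506), a common median (0.0624) and the block without wild type 4 (0.0599).

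With the replicate number as a block (replicate block), 56 probe sets and 0 members were called, and no member's call changed. The labels do not say that a number marks a litter or day. Deviations of same-numbered arrays correlated at 0.22, 0.40, 0.34 and 0.05, and not every array correlated best with its own number, so the numbers were not taken as pairs.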
